A study of Mus musculus with 10 samples.

Results

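In macrophages given dexamethasone, 389 strong regions of the glucocorticoid receptor (GR) had no overlapping GR region in macrophages given lipopolysaccharide and dexamethasone. They are called Dex-alone regions here. The glucocorticoid receptor is a steroid hormone receptor that enters the nucleus when it binds its ligand. There it sits on DNA either at its own response elements or through other transcription factors. In macrophages it is known for raising the transcription of anti-inflammatory genes and for holding back genes driven by NF-κB. Lipopolysaccharide (LPS), a component of the bacterial cell wall, activates NF-κB through Toll-like receptor 4, and RelA is the NF-κB subunit followed in the same study.

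All samples were bone marrow derived macrophages of the mouse strain C57BL/6J, and there was 1 library per condition. GR was precipitated from cells given LPS with dexamethasone (Dex) and from cells given Dex, with no times in the labels. Both GR libraries were cross-linked with disuccinimidyl glutarate followed by formaldehyde. RelA was precipitated from cells that had Dex 3 h before LPS of 0, 3 or 8 h, from cells that had Dex late and LPS for 8 h, and from cells with 0, 3 or 8 h of LPS and no Dex, all with formaldehyde only. Input DNA came from untreated cells and is labelled as the control of the RelA libraries. A GR library of cells without Dex, and input of the doubly cross-linked chromatin, were not analysed here. The files hold regions and no expression, so the cell type could not be checked against markers.

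Members were chosen by measured values. A Dex-alone region had a highest tag density of at least 10 in the GR list of Dex and shared no base pair with any region of the GR list of LPS and Dex or of the input list. Of 55196 GR regions with Dex, 4018 reached that density, and 285 of these overlapped an input region. Among the remaining 3733 strong regions, 389 met no region of LPS and Dex, a share of 10.4%, and 3344 met at least 1. Among the 51142 weaker Dex regions outside input, 69.0% met none. All these shares follow from the rule and are given as a description. A list holds only what passed the authors' region caller, so a region absent from it may still hold receptor below that limit. The lowest score was 9.66 in the list of LPS and Dex and 8.996 in the list of Dex, and 46 Dex-alone regions (11.8%) scored below 9.66, against 181 regions with a counterpart (5.41%). The part of these different limits was not tested. Positions are those of the deposited lists on the mouse build mm9. No annotation of that build was at hand, so no gene is named for any region and no sequence is shown.

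Each region carries the authors' own highest tag density, mean tag density and score. How densities were scaled between libraries is not stated. The low densities lay on whole multiples of 1 step (within 0.0006) for 98.0% of the values below 6 with Dex, and the step was 0.598. On that scale the bound of 10 equals 16.7 steps, and the median Dex-alone region had 22.9 steps. Whether a step is 1 tag is not stated. The GR list of LPS and Dex had a step of 0.668, and its lowest density was 0.668, whereas the lowest density of the Dex list, 0.519, lay below that list's own step. No spread between replicates exists for any value below, so no test between conditions was made. The intervals given with shares are Wilson 95% intervals. Where a limit is given for a count of 0, it is the Wilson upper limit, in places beside the limit of 3 counts. All of these reflect counting error alone.

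Most Dex-alone regions lay near the lower bound of density. Their highest tag density had a median of 13.7 (quartiles 11.4 and 17.3, highest 49.0), against 16.7 (13.1 and 24.3, highest 346) at strong regions with a counterpart. Just inside the bound were chromosome 15, 96207893 to 96208160 (density 10.0), chromosome 17, 20430195 to 20430452 (10.0) and chromosome 18, 44767154 to 44767405 (10.0). Just outside it, 3 regions of chromosome 1 that met the other conditions had a density of 9.56, starting at 27376839, 87399501 and 87448225. Between 9 and 10 there were 31 such regions, and between 10 and 11 there were 64 Dex-alone regions.

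The share of strong regions that were Dex-alone was lower at each higher density. It was 18.3% (15.6 to 21.4; 124 of 678) from 10 to 12, 13.7% (11.5 to 16.1) from 12 to 15 and 9.77% (8.01 to 11.9) from 15 to 20. It was 6.48% (4.89 to 8.53) from 20 to 30 and 3.22% (1.85 to 5.54; 12 of 373) from 30 to 50. None of the 198 regions at 50 and above was Dex-alone.

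**Figure D1:**
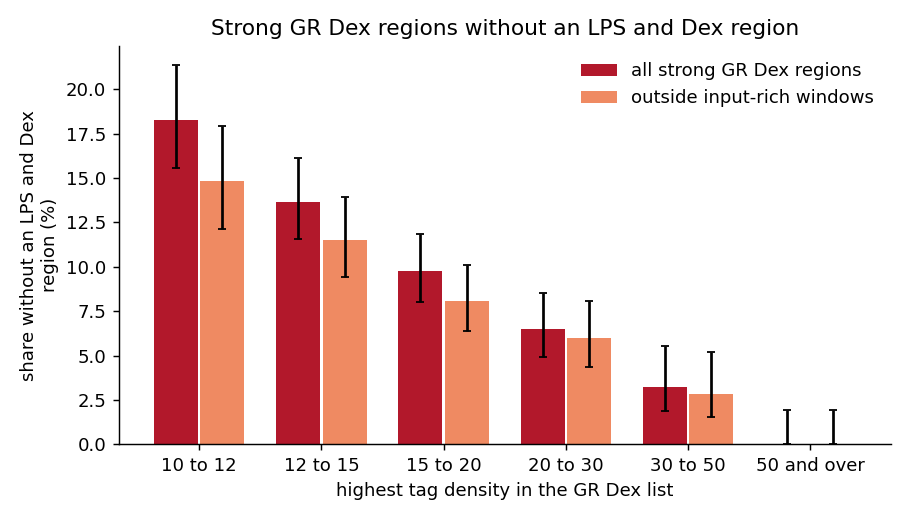
Share of strong GR Dex regions without an overlapping LPS and Dex region, by highest tag density; bars are shares and lines Wilson 95% intervals. The dark bars cover all strong regions and run from 18.3% down to 0 of 198; the light bars leave out windows rich in input regions and run from 14.8% down.

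Dex-alone regions were also narrower and lower in score than strong regions with a counterpart. Their median width was 445 bp (quartiles 357 and 525), against 553 bp (457 and 645), and 14 of them had the smallest width in the list, 251 bp. Their median score was 11.98 (upper quartile 15.3), against 16.7 (27.2). Mean over highest density, a measure of how peaked a region is, had medians of 0.396 in Dex-alone regions and 0.395 in those with a counterpart.

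At like density the gap was small near the bound and was seen in width and score from 12 upward. From 10 to 12 the median widths were 378.5 bp for Dex-alone regions and 420.0 bp for those with a counterpart, and the median scores 11.001 and 11.2. Outside the input-rich windows described below, the widths of that class were 416 bp for Dex-alone regions and 419 bp with a counterpart, and the score was the higher one at Dex-alone regions, 11.04 against 10.85. From 12 to 15 the median widths were 445 bp for Dex-alone regions and 471 bp for those with a counterpart, and the median scores were 11.5 and 12.1 in the same order. From 15 to 20 the widths were 460.0 bp for Dex-alone regions and 544 bp with a counterpart, and the scores 12.99 and 15.3. From 20 to 30 the widths were 512 bp for Dex-alone regions and 610.0 bp with a counterpart, and the scores 16.2 and 21.3. From 30 to 50 the widths were 634.5 and 675 bp and the scores 29.0 and 34.6, again with Dex-alone regions first. Score and density of the GR Dex library also entered the choice of members or come from the same library, so these values describe the set only.

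Dex-alone regions were concentrated in stretches of the genome where the input list was crowded. After these positions had been seen, windows of 1 Mb with 10 or more input regions were called input-rich. There were 15 of them on 8 chromosomes, with 369 of the 765 input regions. They held 101 of the 389 Dex-alone regions, or 25.96% (21.9 to 30.5), against 283 of the 3344 with a counterpart, or 8.46% (7.57 to 9.45). They held 1.61% of all GR regions of LPS and Dex and 1.77% of all GR regions of Dex.

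The largest of these stretches was on chromosome X, from 120000000 to 123000000. Its 3 windows held 73 Dex-alone regions, or 18.8% (15.2 to 22.9) of the set, together with 208 strong regions with a counterpart and 95 input regions. By window there were 15, 32 and 26 Dex-alone regions, from low to high coordinate. The next were 2 windows of chromosome 1, from 85000000 and from 87000000, with 10 and 6 Dex-alone regions, and 1 of chromosome 8 from 19000000 with 5. Outside the input-rich windows, 1 window held 4 members, on chromosome 6 from 47000000, and no other held more than 2.

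Chromosome X carried 92 Dex-alone regions, 23.7% (19.7 to 28.1), against 8.31% (7.42 to 9.30) of strong regions with a counterpart. The X share was 30.7% in the input list. Outside the input-rich windows it was 4.86% (2.92 to 7.99; 14 of 288) for Dex-alone regions and 1.93% (1.497 to 2.48; 59 of 3061) for those with a counterpart. Seen from the strong regions, 24.9% (20.7 to 29.5) of those on X were Dex-alone, and 19.2% (11.8 to 29.7; 14 of 73) outside the input-rich windows. On the autosomes the share ran from 3.03% on chromosome 19 (3 of 99) to 13.5% on chromosome 1 (41 of 304). Outside the input-rich windows it ran from 3.03% on chromosome 19 to 12.3% on chromosome 14 (16 of 130). Chromosome 1 then had 9.43% (25 of 265). Chromosome Y held 1 Dex-alone region, at 1638453 to 1638956 with a density of 28.9, 644 bp from an input region.

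**Figure D2:**
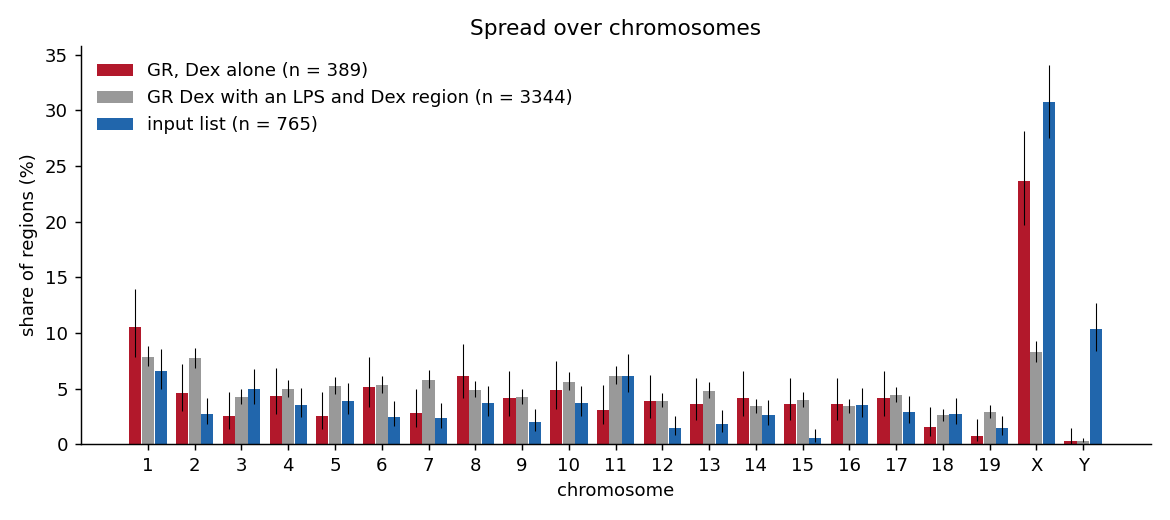
Share of each set of regions on each chromosome, with Wilson 95% intervals, for Dex-alone regions, strong GR Dex regions with a counterpart, and the input list. Chromosome X holds 23.7% of Dex-alone regions, 8.31% of regions with a counterpart and 30.7% of input regions.

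Within the input-rich windows, Dex-alone regions were narrow and low in score. Their median width was 351 bp and their median score 10.98, against 576 bp and 23.2 for regions with a counterpart there. Within 50000 bp of a Dex-alone region in these windows lay a median of 10 GR regions of LPS and Dex, 14 other GR Dex regions and 1 input region. Crowding was not particular to Dex-alone regions there. For regions with a counterpart in these windows the medians were 21, 26 and 2, the first count including the counterpart itself. Outside the windows the medians for Dex-alone regions were 2, 2 and 0. What the input crowding contributes to the members of these windows was not tested.

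Some members lay beside each other. With neighbours joined over gaps of up to 10000 bp, 67 members formed 23 groups and 322 stood alone. Groups were not formed for strong regions with a counterpart, so whether grouping is particular to the members was not tested. Of the groups, 15 were on chromosome X and 19 in input-rich windows. The group with most members spanned chromosome X, 120551556 to 120579105, with 6 regions of density 10.2 to 26.2, the nearest 362 bp from an input region and 175 bp from a region of LPS and Dex. A group of 5 lay at chromosome X, 122338286 to 122358321, with densities of 10.2 to 13.7, and its nearest input region was 308012 bp away. Of the 3 groups with 4 members, that at chromosome X, 122638171 to 122647197 had the highest density (20.3) and held the region with the highest score of all members. The others were at chromosome X, 122531420 to 122551817 and chromosome 6, 47606574 to 47633616. Outside the input-rich windows only 10 members were in groups, 4 of them in that group of chromosome 6.

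Many Dex-alone regions had a region of LPS and Dex close by, though none overlapped. The nearest lay within 250 bp for 27 members, within 1000 bp for 78, or 20.1% (16.4 to 24.3), and within 10000 bp for 206. In the input-rich windows 47.5% (38.1 to 57.2) had one within 1000 bp, against 10.4% (7.39 to 14.5) elsewhere, and the median distances were 1205 and 16910.5 bp. For the 78 close ones, the highest tag density of the neighbour had a median of 12.7 (quartiles 7.35 and 17.8), and 50 of the neighbours reached 10. Strong regions of LPS and Dex without a Dex counterpart, 12798 of 16366 or 78.2%, were farther from the other list, with a median of 33422 bp and 2.90% (2.62 to 3.20) within 1000 bp.

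**Figure D3:**
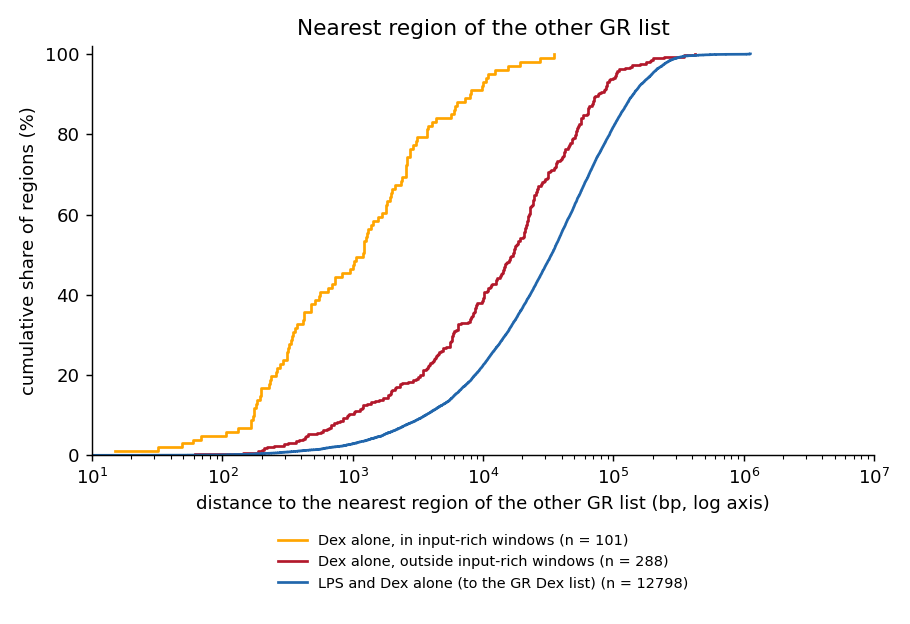
Cumulative share of regions by distance in bp (log axis) to the nearest region of the other GR list. Curves are Dex-alone regions in input-rich windows (median 1205 bp), Dex-alone regions elsewhere (median 16910.5 bp) and, for the reverse case, strong regions of LPS and Dex without a Dex region (median 33422 bp).

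At strong regions that were listed under both treatments, density was mostly higher with LPS and Dex. On the deposited scale the ratio of LPS and Dex over Dex had a median of 2.16 (quartiles 1.23 and 3.13; 3344 regions), and 615 regions, or 18.4%, had the lower density with LPS and Dex. A ratio below 0.5 was found at 86 of them (2.57%), and a counterpart density below 5 at 11. The share below 0.5 was 1.99% from 10 to 12 in Dex density, 1.07% from 12 to 15 and 1.34% from 15 to 20. It was 1.36% from 20 to 30, 4.16% (15 of 361) from 30 to 50 and 16.2% (32 of 198) at 50 and above. The windows again differed. In input-rich windows the median ratio was 0.879 and 67.5% of 283 regions were lower with LPS and Dex, against 2.29 and 13.9% of 3061 elsewhere. The part of input crowding and of the unstated scaling in this difference was not tested.

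The 10 Dex-alone regions of highest density had densities of 32.8 to 49.0 and widths of 519 to 726 bp. Of these, 8 lay outside input-rich windows, as did 288 (74.0%) of all 389 members. None of the 10 had a region of LPS and Dex within 1000 bp and none met a RelA region of any list. Over all 389 members these shares were 20.1% and 1.29%, so none of 10 with RelA does not set the densest members apart.

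The first was chromosome 10, 94054852 to 94055551, with a density of 49.0, a score of 36.6 and a width of 699 bp. The nearest region of LPS and Dex was 12617 bp away with a density of 19.4, and the nearest input region was 11719653 bp away. Chromosome 18, 65263446 to 65264084 had a density of 47.8 and a score of 38.03, and the nearest region of LPS and Dex was at 32817 bp. Both scores were above 34.6, the median of strong regions with a counterpart at densities of 30 to 50. Both densities were near the top of that class, however, so this is not a comparison at like density. Score over density was 0.747 and 0.796 in the same order, below the median of 0.891 for regions of that class with a counterpart.

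At chromosome 10, 71755795 to 71756427 (density 43.0, score 30.1) the nearest region of LPS and Dex, 4382 bp away, had a density of 2.67. At chromosome 19, 61000442 to 61000976 (41.3 and 36.8) the nearest was 8585 bp away with a density of 3.34. Chromosome 14, 112917818 to 112918485 (41.2 and 29.4) had none within 100000 bp, the nearest lying at 122589 bp. The same held for chromosome 2, 92008048 to 92008569 (32.8 and 24.7), with the nearest at 102116 bp. Chromosome 10, 129172192 to 129172810 (37.0 and 26.4) had its nearest at 71381 bp and chromosome 6, 31452362 to 31453088 (33.5 and 34.6) at 92780 bp.

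The other 2 of the highest 10 were in the crowded stretch of chromosome X and had lower scores. Chromosome X, 121309276 to 121309913 had a density of 35.0 but a score of 13.4, with an input region 130 bp away and 23 input regions within 50000 bp. Chromosome X, 122695644 to 122696163 had a density of 33.7 and a score of 13.7, with an input region at 2936 bp and 14 within 50000 bp. Each of the 8 others had a score of 24.7 or more.

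Ranking by score brought up a different mix. The highest score, 69.4, belonged to chromosome X, 122644952 to 122645331, with a density of 11.4 and a region of LPS and Dex 183 bp away. Next was chromosome X, 120783706 to 120784123, with a score of 40.8, a density of 13.7, an input region at 216 bp and a region of LPS and Dex at 165 bp. Of the 10 highest scores, 5 were in input-rich windows, all 5 with a region of LPS and Dex within 1000 bp, and the other 5 were also among the 10 highest densities. Those in the windows also included chromosome X, 120330247 to 120330579 (score 35.9) and 120560185 to 120560436 (32.8), and chromosome 8, 19997004 to 19997281 (29.9). The widest members were chromosome X, 121763968 to 121765234 (1266 bp, density 12.5), chromosome 1, 75457222 to 75458014 (792 bp, 11.9), chromosome 17, 29242133 to 29242890 (757 bp, 10.2) and chromosome X, 121524699 to 121525445 and 122224584 to 122225330 (746 bp each, 18.5 and 11.4).

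**Figure D4:**
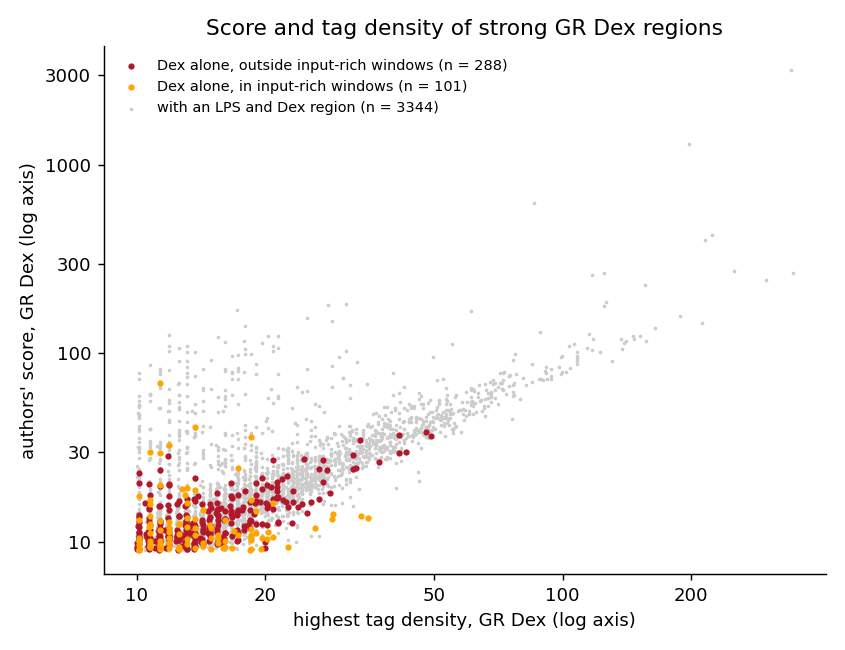
Authors' score against highest tag density in the GR Dex list, both on log axes, for Dex-alone regions outside and inside input-rich windows and for strong regions with a counterpart; each point is a region. Dex-alone regions end at a density of 49.0. The 2 points of input-rich windows at densities of 33.7 and 35.0 lie at scores of 13.7 and 13.4, at the lower edge of the points.

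Outside the input-rich windows a set of 258 Dex-alone regions remained that also had no region of LPS and Dex within 1000 bp. Some of these regions still lay in crowded places. Of the 258, 7 (2.71%) had an input region within 10000 bp, and the most crowded had 41 other GR Dex regions within 50000 bp. The median density of the set was 14.2, the median width 450.5 bp and the median score 12.4. In this set 12 regions, 4.65% (2.68 to 7.95), lay on chromosome X, and 83 had a region of LPS and Dex within 10000 bp. At a density of 20 and above, 48 Dex-alone regions lay outside the input-rich windows. They had a median width of 535 bp and a median score of 18.4, against 627 bp and 24.7 for the 939 regions outside the windows with a counterpart and a density of 20 to 50. The 2 sets were not at like density, with medians of 22.9 for the Dex-alone regions and 26.3 for those with a counterpart.

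RelA met few Dex-alone regions as the rule defines them. The RelA lists were not used to choose the members. RelA of 3 h of LPS met 4 of the 389 Dex-alone regions, 1.03% (0.401 to 2.61), against 806 of 3344 strong regions with a counterpart, 24.1% (22.7 to 25.6). Over all strong GR Dex regions outside input the share was 21.7%. The low share held under some other definitions of a counterpart and not under others. It was 0.893% when regions within 500 bp counted as counterparts and 0.965% when those within 1000 bp did. With only counterparts of density 10 or more it was 0.731% of 547. That set also held the 158 strong regions whose counterpart had a density below 10. A low RelA share was therefore not particular to regions with no counterpart. It was 8.74% when a counterpart needed its centre within 250 bp, and 17.3% when 50% of each region had to be shared. The rules on density, centres and shared length all let the set include regions that an LPS and Dex region overlaps. RelA of 8 h of LPS met none of the 389, which allows a share of up to 0.771% by the limit of 3 counts (Wilson 0.978%), against 9.75% (8.79 to 10.8) of regions with a counterpart. Late Dex with 8 h of LPS gave none of 389, against 70 of 3344 (2.09%). Over all strong regions these shares were 8.73% and 1.88%.

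The gap was there at like density and outside the input-rich windows. From 10 to 12, RelA of 3 h met 1.18% (0.208 to 6.37) of 85 Dex-alone regions, against 18.0% (14.8 to 21.6) of regions with a counterpart. From 12 to 15 the shares were 3.37% (1.15 to 9.45) of 89 and 21.4% (18.5 to 24.7). From 15 to 20 it met none of 66 (Wilson upper limit 5.50%), against 27.8% of regions with a counterpart. From 20 to 30 it met none of 38 (9.18%), against 28.2%, and from 30 to 50 none of 10 (27.8%), against 33.2%. Pooled from 15 to 50, which is not at like density, none of 114 Dex-alone regions met RelA of 3 h. This allows up to 2.63% by the limit of 3 counts (Wilson 3.26%), against 29.0% (26.9 to 31.2) of 1692. Within the windows RelA of 3 h was rare in both sets, at 0 of 101 and 1 of 283.

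**Figure D5:**
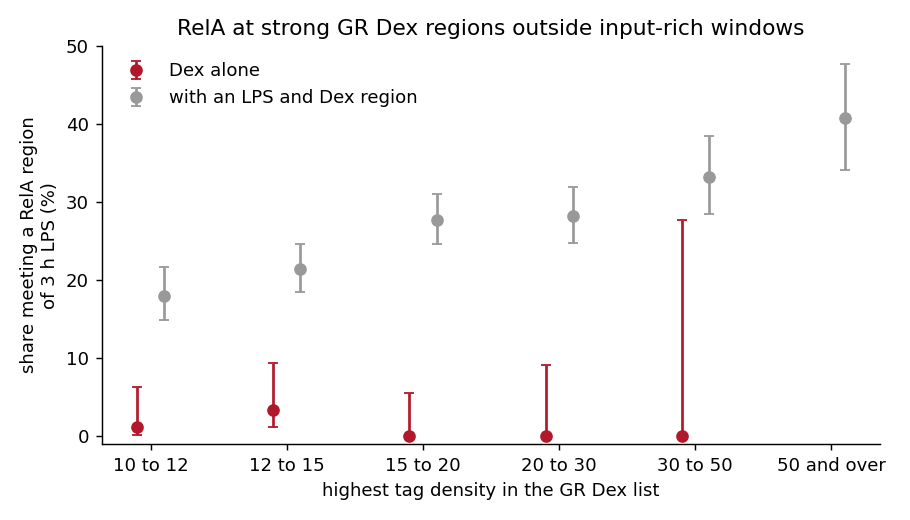
Share of strong GR Dex regions outside input-rich windows that met a RelA region of 3 h of LPS, by highest tag density, with Wilson 95% intervals, for Dex-alone regions and regions with a counterpart. Dex-alone shares lie between 0 and 3.37%; shares with a counterpart start at 18.0% and are higher in each denser class.

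The gap was also seen at a distance. RelA of 3 h lay within 10000 bp of 25 of the 288 Dex-alone regions outside the windows, 8.68% (5.95 to 12.5), against 37.3% (35.6 to 39.1) of 3061 regions with a counterpart. Strong regions of LPS and Dex without a Dex region met RelA of 3 h at 17.2% (16.5 to 17.8) of 12798 and RelA of 8 h at 9.73% (9.23 to 10.3). RelA of 3 and 8 h and the GR list of LPS and Dex all come from cells given LPS, whereas the GR list of Dex does not. The treatment that these RelA lists share with 1 of the GR lists, and the condition that GR was not listed there, cannot be told apart in this comparison. Dex-alone regions were also narrower, with medians of 445 bp against 553 bp, and the part of width in the RelA shares was not tested.

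The lists of resting and pretreated cells were short and had little to share. None of the Dex-alone regions met RelA at 0 h of LPS without Dex, after Dex pretreatment alone, or after pretreatment and 8 h of LPS, against 17, 16 and 3 regions with a counterpart. Over all strong regions the shares were 0.455%, 0.429% and 0.0804%. Pretreatment and 3 h of LPS gave 1 of 389 and 9 of 3344, and 0.268% over all strong regions.

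In all, 5 of 389 Dex-alone regions (1.29%) met a RelA region of any list, against 831 of 3344 with a counterpart (24.9%). All 5 had a density below 15, as did 242 of the 389 members. Chromosome 1, 133000255 to 133000693 (density 12.5) met a RelA region of 3 h with a RelA density of 21.2. The nearest GR region of LPS and Dex was 6431 bp away there. Chromosome 12, 56592802 to 56593158 (14.8) overlapped 2 RelA regions of 3 h, with RelA densities of 23.9 and 72.6, and the nearest GR region of LPS and Dex was 297 bp away. Chromosome 14, 34045195 to 34045663 (14.7) and chromosome 4, 32337274 to 32337648 (10.6) met weaker RelA regions of 3 h, with RelA densities of 14.6 and 14.96, below the 18.5 that was the median of that list. Chromosome 13, 113368122 to 113368788 (13.9, score 17.5) met the RelA region of pretreatment and 3 h of LPS, with a RelA density of 14.2 and a width of 251 bp.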

How the data were processed

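Region lists of ChIP-seq were used, 1 per library. The submitters' processing notes name CASAVA and the build mm9. How regions were called, with what threshold and whether against input, no source used here states. Highest and mean tag density are signal values that the authors deposited, with unstated scaling. Per the file headers, each region's score is a z-score. The deposited p-value, which the authors printed as 0 where very small, was not used.

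The members were found with Python 3.11.15 and pandas 2.3.3, and intervals with statsmodels 0.14.6. Overlap meant at least 1 bp shared, and distances were measured between region edges. Regions named are the 10 of highest density, the 10 of highest score, the 5 widest, those meeting RelA, the largest groups and those next to the bound. Distance and overlap functions were tested on simulated regions. Members and lists were chosen with earlier results of these data known; input-rich windows were added after the positions had been seen. There was 1 library per condition, so no test was made. Depth is unknown.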

Additional observations from a re-analysis of the deposited data

How the results depend on the processing

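The 10 summary values of the set were recomputed under 14 alternatives chosen at the outset and 2 added after the data had been seen; 77 of 157 recomputed values stayed within the interval of the main value (or within 1.5 times the main count) and 80 did not. No direction was at stake, since none of these values is a difference between conditions. No paired analysis was possible because each condition had 1 library. The X share without chromosome X, the share within 1000 bp when such neighbours count as counterparts, and the share within 10000 bp of input when such regions are left out are 0 by construction and were not computed.

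In the main set 12.3% (9.43 to 15.98) of members lay within 10000 bp of an input region and 17.2% within 10000 bp of another member. Of strong regions with a counterpart, 4.46% lay that near input. In input-rich windows these input shares were 33.7% for members and 36.7% with a counterpart, and outside them 4.86% and 1.47%. Shares below are of the set as each alternative defines it. A lowest density of 8 made the set 12.3% of strong regions, with a median density of 12.5 and 22.6% within 10000 bp of another member. At 12, it was 8.67%, with medians of 15.5 (density), 459 bp and 12.45 (score) and 12.45% near another member. At 15, there were 147 members, 6.71% of strong regions, with 19.0% on X, medians of 18.5, 486 bp and 14.2, and 13.6% within 1000 bp of a region of LPS and Dex. Of these 8.16% were near another member and 0% met RelA of 3 h. At 20, there were 58, or 4.53%, with 15.5% on X, medians of 22.9, 522.5 bp and 16.8, 8.62% within 1000 bp, 3.45% near another member and 0% with RelA. The higher-scoring 50% gave 84, or 4.50%, with 17.9% on X, medians of 19.0, 542.5 bp and 19.4, 3.57% near another member and 0% with RelA.

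The RelA share rose under the counterpart rules on shared length and on centres, and was 0.731 to 0.965% under the other counterpart rules. With a required overlap of 50% of each region, the set grew to 793, or 21.2% of strong regions, and 17.3% met RelA of 3 h. It then had 15.1% on X, medians of 426 bp and 11.4 (score), 60.8% within 1000 bp of LPS and Dex and 8.07% within 10000 bp of input. With centres within 250 bp, 13.8% were members and 8.74% met RelA, with medians of 14.3, 471 bp and 12.6, 39.6% within 1000 bp and 24.5% near another member. Both rules count strong regions as members although a region of LPS and Dex overlaps them. With only counterparts of density 10 or more, 14.7% were members, with medians of 13.1, 464 bp and 13.2, 43.1% within 1000 bp and 29.3% near another member. Counting regions within 500 bp as counterparts left 9.001%, with 19.0% on X, 7.44% within 1000 bp, 8.33% near input and 12.8% near another member. Within 1000 bp it left 8.33%, with 17.0% on X, 7.07% near input and 9.65% near another member.

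Keeping input-overlapping regions gave 24.4% near input and 23.7% near another member, and leaving out regions within 10000 bp of input gave 15.3% within 1000 bp of LPS and Dex. Merging regions of a list within 500 bp of each other first gave 18.0% on X, 9.17% within 1000 bp, 7.99% near input and 11.2% near another member. Without chromosome X, 8.83% were members, with 13.1% within 1000 bp, 9.43% near input and 6.40% near another member. Without the input-rich windows, 8.60% were members, with 4.86% on X, 10.4% within 1000 bp, 4.86% near input and 3.47% near another member. Leaving out regions of LPS and Dex that overlap input before the search gave 394 members. The cause of these shifts was not tested, beyond what each rule builds in. Precision is limited by density: the bound of 10 is 16.7 density steps, and there is no replicate.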
